A study of Mus musculus with 2 samples.

Results

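The formative and primed state markers are 8 protein-coding genes: Fgf5, Otx2, Pou3f1, Zic2, Zic5, Sall2, Sox3 and Foxd3. They were chosen by symbol, through the GENCODE M21 annotation on GRCm38 (the assembly that mm10 denotes), and all 8 had a row among the 43629 genes of the deposited counts. Polyadenylated RNA was counted in 2 libraries of 1 group, replicates A and B, both from mouse embryonic stem (ES) cells of a 129/Ola background at passage 7 with a Dgcr8 knockout made by paired CRISPR/Cas9. No unedited library was among the samples, so the values are levels in knockout cells and no effect of the knockout can be read from them. The titles carry the codes KO2 and d5, which the labels do not explain. Nothing says whether A and B were separate cultures or clones, and their spread may therefore be technical.

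ES cells in culture resemble the naive epiblast of the blastocyst. As the epiblast prepares to form the germ layers it passes through a formative state into a primed state, in which naive factors are shut down and genes such as Fgf5, Otx2 and Pou3f1 come up. Several of these genes, Otx2, Sox3 and the Zic genes among them, are used again in the early neural plate. Dgcr8 is the RNA-binding partner of Drosha, and cells without it make almost no canonical microRNAs. In bulk RNA a low level may come from few cells with much of a transcript or from many cells with little, and these cannot be told apart.

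Library A totalled 27872396 counts and library B 30327146. A level within 1 gene is given as CPM (count per 1000000 of its library), and levels of different genes are compared as RPKM, the CPM per kilobase of the longest annotated transcript. The ES cell genes Pou5f1, Sox2, Nanog, Zfp42 and Esrrb all passed 1 CPM in both libraries, with RPKM values of 148 to 1325 in A and 149 to 1132 in B. Dgcr8 itself had 1253 counts in A and 1942 in B, and counts per gene do not show whether these reads span the edited part. Feeder fibroblast markers summed to 34.4 CPM in A and 23.6 in B, of which Thy1 alone held 31.4 and 21.9. In both libraries 2 of 7 reached 1 CPM, Thy1 and Col1a1, the latter at 2.91 CPM in A and 1.22 in B. Postn and Lum were at 0 counts in both, and Dcn was at 0 in A. For endoderm 1 of 6 and for trophoblast 2 of 5 markers reached 1 CPM in both libraries, with sums of 8.83 CPM in A and 10.7 in B for endoderm and of 8.11 and 5.54 for trophoblast. No marker of these 2 lists was at 0 in both libraries, and Afp was at 0 in B. The similar endoderm sums hide differences between the libraries. Gata4 was higher in A, at 7.10 CPM against 4.91 in B. Higher in B were Gata6 (0.682 CPM in A and 2.34 in B), Sox7 (0.753 and 2.41), Sox17 (0.179 and 0.627) and Foxa2 (0.0718 and 0.462). The part of such cells in the levels below was not tested.

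Of the 8 markers, 6 passed 1 CPM in A and in B and 2, Sox3 and Fgf5, lay under 1 CPM in both. Among all 43629 genes 30.6% reached this level, as did 56.4% of the 23698 genes with a count and 70.6% of the 16971 protein-coding ones with a count. The median marker had 4.36 RPKM in A and 3.64 in B, against 3.62 and 3.37 for protein-coding genes with a count. Together the markers were counted 3674 times in A and 3242 times in B, or 132 and 107 CPM. Per length they spanned a 219-fold range in A and a 246-fold range in B.

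**Figure D1:**
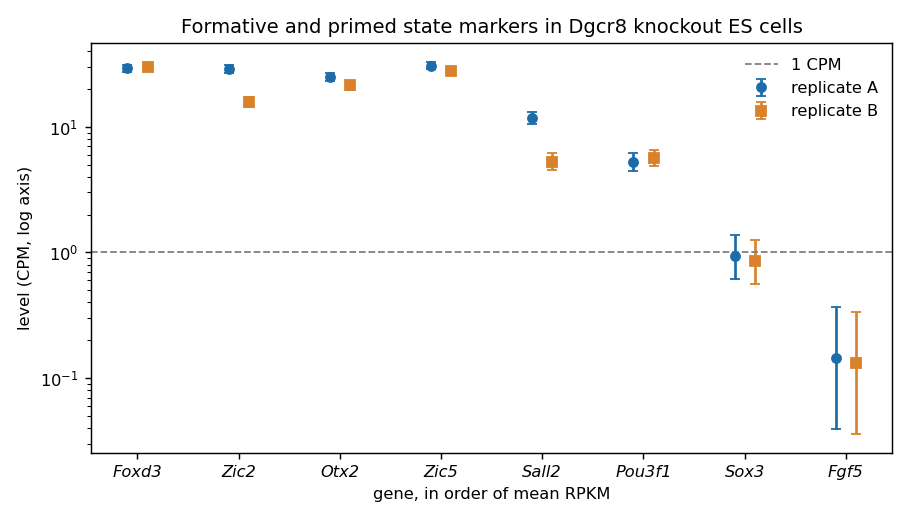
Level in CPM (log axis) of each marker in replicates A and B of Dgcr8 knockout ES cells, with exact 95% Poisson intervals that cover counting error only, and 1 CPM as a dashed line. Foxd3, Zic2, Otx2, Zic5, Sall2 and Pou3f1 lie above the line in both libraries, Sox3 lies just under it at 0.933 and 0.857 CPM, and Fgf5 lies at 0.144 and 0.132 CPM.

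The sequences before the annotated starts are shown for the markers with the highest and the lowest level per length, Foxd3 and Fgf5, and for Sall2, which differed most between the libraries and has 2 starts in RefSeq. Each run is the 250 bases before a start in the RefSeq promoter table (GRCm38.p6), 5′ to 3′ on the strand of the gene, and capitals mark each CG dinucleotide. The positions are chr4:99656049-99656298 (plus strand) for Foxd3, chr5:98253934-98254183 (plus strand) for Fgf5, and chr14:52328671-52328920 and chr14:52316324-52316573 (minus strand) for the starts of Sall2.
Foxd3: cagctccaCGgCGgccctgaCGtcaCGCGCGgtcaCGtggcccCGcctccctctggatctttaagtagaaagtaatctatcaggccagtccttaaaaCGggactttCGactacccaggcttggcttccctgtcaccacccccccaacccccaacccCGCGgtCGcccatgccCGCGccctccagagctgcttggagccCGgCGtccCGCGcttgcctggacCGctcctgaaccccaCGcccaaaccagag
Fgf5: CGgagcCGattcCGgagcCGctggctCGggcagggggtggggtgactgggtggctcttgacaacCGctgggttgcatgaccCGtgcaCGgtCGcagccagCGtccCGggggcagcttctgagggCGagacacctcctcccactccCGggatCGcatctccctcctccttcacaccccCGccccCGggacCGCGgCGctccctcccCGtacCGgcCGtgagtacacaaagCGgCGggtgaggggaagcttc
Sall2, upstream start: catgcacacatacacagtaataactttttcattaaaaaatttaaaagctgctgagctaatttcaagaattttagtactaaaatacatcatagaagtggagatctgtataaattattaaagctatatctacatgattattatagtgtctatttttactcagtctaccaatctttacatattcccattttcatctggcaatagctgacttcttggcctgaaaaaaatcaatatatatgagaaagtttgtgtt
Sall2, downstream start: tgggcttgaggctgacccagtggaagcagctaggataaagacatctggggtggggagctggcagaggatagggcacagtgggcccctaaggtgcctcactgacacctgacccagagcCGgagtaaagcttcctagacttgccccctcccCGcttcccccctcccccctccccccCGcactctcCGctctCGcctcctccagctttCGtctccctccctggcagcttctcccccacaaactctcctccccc
Foxd3 and Fgf5 both have CG-dense starts, with 21 and 24 CG dinucleotides and a GC content of 65.6% and 70.8%. Of 32851 such windows in the table, 16.3% held at least as many CG as that of Foxd3 and 12.0% as many as that of Fgf5, and the median was 6. The upstream window of Sall2 held no CG at a GC content of 28.0%, and the downstream window held 6 at 64.4%. Counts per gene do not tell which start of Sall2 the reads came from. Windows were found for 5 of the markers.

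Among the markers, Foxd3 had the highest level per length. It encodes a forkhead factor that acts in epiblast cells and later in the neural crest. Foxd3 (ENSMUSG00000067261, chromosome 4, 99656299 to 99658622, plus strand) is a single-exon gene. It was counted 813 times in A and 914 times in B, or 29.2 CPM (95% Poisson interval 27.2 to 31.2) and 30.1 CPM (28.2 to 32.2). Its mean was 29.7 ± 0.685 CPM (SD, n = 2), a spread of 2.31% of the mean by plain library totals. Per length it was the highest marker in both libraries, with 12.6 RPKM in A and 13.0 in B. Of the 13372 genes that passed 1 CPM in A and in B, those with an annotated length were ranked by mean RPKM. Foxd3 lay at percentile 59.5 of these ranked genes. Its paralogs Foxd1, Foxd2 and Foxd4 stayed at 5 counts or fewer in each library, so Foxd3 made up 99.7% of the family's summed RPKM in A and 99.6% in B. Gm23366, a microRNA gene on the same strand, shares 89 exon bases with Foxd3 and had 0 counts in each library.

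Otx2, a homeodomain factor that directs the exit from the naive state and later patterns the anterior head, was at a middling level. Otx2 (ENSMUSG00000021848, chromosome 14, 48657677 to 48673819, minus strand) was counted 696 times in A and 649 times in B, or 25.0 CPM (23.15 to 26.9) and 21.4 CPM (19.8 to 23.11). With 9.63 RPKM in A and 8.26 in B it sat at percentile 50.9 of the same ranked genes. It too was nearly alone in its family. Otx1 had 15 counts in A and 10 in B, and Crx had none in either, where 0 counts leave room for as much as 0.108 CPM (A) and 0.0989 CPM (B). A noncoding gene on the other strand, Otx2os1, shares 154 exon bases with Otx2 and had 12 counts in A and 2 in B. Gm49154, on the same strand as Otx2, shares 168 exon bases and has no row among the counts.

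Pou3f1, which encodes the POU factor Oct6, was lower. Pou3f1 (ENSMUSG00000090125, chromosome 4, 124656807 to 124660655, plus strand) is also a single-exon gene and was counted 146 times in A and 172 times in B, or 5.24 CPM (4.42 to 6.16) and 5.67 CPM (4.86 to 6.59). Per length this was 1.36 RPKM in A and 1.47 in B, at percentile 12.9 of the same ranked genes. The brain POU genes Pou3f2, Pou3f3 and Pou3f4 had 2 to 8 counts per library, and Pou3f1 made up 93.0% of the family's summed RPKM in A and 91.9% in B. An antisense gene that shares 330 exon bases with it, Gm2164, had 1 count in each library.

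The zinc finger genes Zic2 and Zic5 are neighbouring protein-coding genes on chromosome 14, 9757 bases apart and transcribed away from each other. The noncoding gene 2610035F20Rik lies between them. Zic2 (ENSMUSG00000061524, 122475435 to 122479852, plus strand) was counted 807 times in A and 479 times in B, or 29.0 CPM (27.0 to 31.0) and 15.8 CPM (14.4 to 17.3). Zic5 (ENSMUSG00000041703, 122456795 to 122465677, minus strand) was counted 854 times in A and 838 times in B, or 30.6 CPM (28.6 to 32.8) and 27.6 CPM (25.8 to 29.6). Zic2 was thus high in A and low in B, with intervals that did not overlap, whereas those of Zic5 overlapped. The intervals of Otx2 and Sall2 did not overlap either, although Otx2 missed only narrowly, with a lower limit of 23.15 CPM in A and an upper limit of 23.11 in B. Per length Zic2 had 11.9 RPKM in A and 6.47 in B and Zic5 had 6.43 and 5.80, so Zic2 exceeded its neighbour 1.85-fold in A and 1.12-fold in B. Zic1 had 4 counts in A and 5 in B, and Zic4 had none.

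Sall2, a zinc finger gene of the spalt family, was low and uneven. Sall2 (ENSMUSG00000049532, chromosome 14, 52311172 to 52328762, minus strand) was counted 328 times in A and 160 times in B, or 11.8 CPM (10.5 to 13.1) and 5.28 CPM (4.49 to 6.16). It had the widest relative spread of the 8, with an SD of 53.9% of the mean of 8.52 CPM. Per length it had 2.29 RPKM in A and 1.03 in B, against 61.8 and 58.4 RPKM for Sall4, a partner of Oct4 in ES cells, and 37.6 and 54.0 for Sall1. Sall2 made up 2.23% of the family's summed RPKM in A and 0.894% in B. Sall3, with 0.821 RPKM in A and 1.21 in B, lay below Sall2 in A, where Sall2 was 2.78-fold higher, and above it in B.

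Sox3, a SoxB1 factor of the epiblast and neural plate, lay at the edge of detection by the 1 CPM threshold. Sox3 (ENSMUSG00000045179, chromosome X, 60891366 to 60893430, minus strand), a single-exon gene, held 26 counts in each library, or 0.933 CPM in A (0.609 to 1.37) and 0.857 CPM in B (0.560 to 1.26). Both intervals include 1 CPM, so on which side of the threshold Sox3 lies is not settled at this depth. Its level was 0.452 RPKM in A and 0.415 in B, against 230 and 152 RPKM for its paralog Sox2, which was 509-fold higher in A and 367-fold higher in B. Sox1, a marker of committed neural cells, had 1.37 RPKM in A and 0.635 in B and so also lay above Sox3 in both libraries. In B their counting intervals overlapped, at 0.512 to 0.777 RPKM for Sox1 and 0.271 to 0.608 for Sox3.

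Fgf5, the signal most used as a mark of the primed epiblast and the only secreted factor of the set, was near the limit of detection. Fgf5 (ENSMUSG00000029337, chromosome 5, 98254184 to 98277030, plus strand) held 4 counts in each library, or 0.144 CPM in A (0.0391 to 0.367) and 0.132 CPM in B (0.0359 to 0.338). Its 0.0574 RPKM in A and 0.0527 in B stand against 99.1 and 62.8 RPKM for Fgf4, the FGF that ES cells use to leave the naive state. Fgf4 was therefore 1726-fold higher in A and 1192-fold higher in B, while the muscle gene Fgf6 had 0 counts in both. RNA of the listed FGF and ERK genes was found: all 14 passed 1 CPM in A and in B, where 70.6% of protein-coding genes with a count did. Their median was 31.6 RPKM in A and 46.4 in B, and activity of the pathway was not tested. The ERK-responsive factor gene Etv5 was the highest of that list at 106 RPKM in A and 120 in B, and the receptor gene Fgfr3 was the lowest at 0.414 and 0.427.

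**Figure D2:**
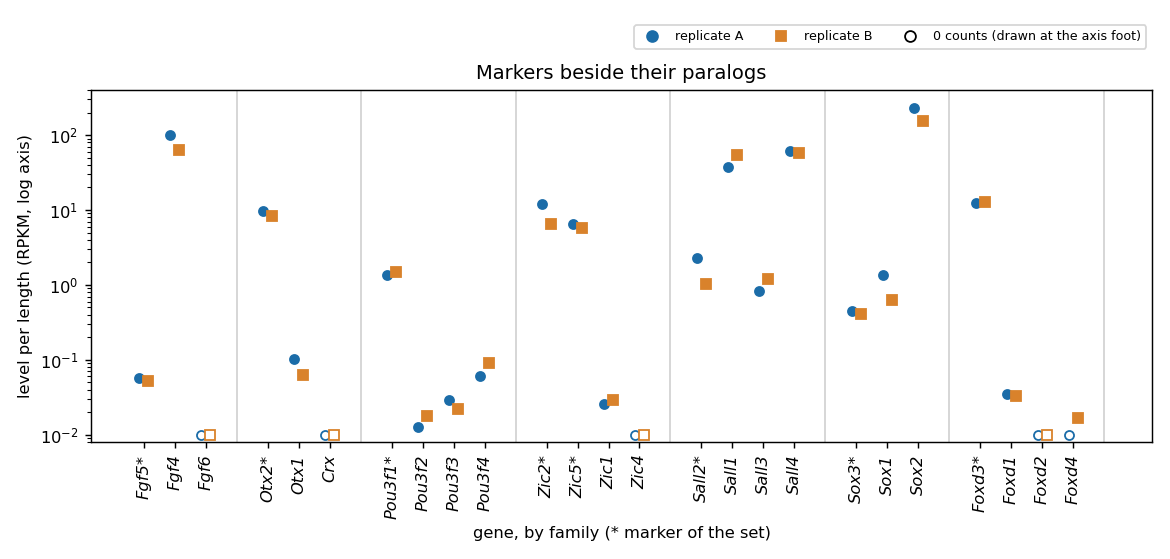
Level per length (RPKM, log axis) of each marker, starred, and the paralogs reported here in replicates A and B, by family, with open symbols at the axis foot for 0 counts. Foxd3, Otx2 and Pou3f1 are the highest genes of their families, whereas Fgf5, Sall2 and Sox3 lie under Fgf4, Sall4 and Sox2.

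By RPKM the order of the markers was Foxd3 (12.8 ± 0.295), Zic2 (9.17 ± 3.81), Otx2 (8.95 ± 0.974), Zic5 (6.11 ± 0.446), Sall2 (1.66 ± 0.892), Pou3f1 (1.42 ± 0.0796), Sox3 (0.433 ± 0.0259) and Fgf5 (0.0551 ± 0.00328; mean ± SD, n = 2 each). The values of Zic2 and Otx2 overlapped, as did those of Sall2 and Pou3f1, and both pairs changed places between the libraries. The other neighbours in the order did not overlap, although Foxd3 and Zic2 were close in A, at 12.6 and 11.9 RPKM with overlapping counting intervals. The fourth marker, Zic5, exceeded the fifth in A, Sall2, 2.81-fold, and in B it had 5.80 RPKM, against 1.47 for Pou3f1, the fifth there. Sox3 exceeded Fgf5 7.87-fold in both libraries. With the length of all exons joined in place of the longest transcript, Otx2 came to 5.49 ± 0.598 RPKM, at a mean below the 5.96 ± 0.435 of Zic5. The SDs depend on the unit, since RPKM summed over all genes with a count to 521817 in A and 443154 in B. As TPM, which is RPKM rescaled to a sum of 1000000 in each library, Otx2 had 18.5 ± 0.119. Foxd3 had 26.7 ± 3.68 TPM and Pou3f1 2.97 ± 0.507, wider relative spreads than by RPKM, and the order of the means was the same.

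The markers were then set beside other gene lists of pluripotent cells. Their median of 4.36 RPKM in A and 3.64 in B lay under that of 15 naive state factors, with 46.9 and 35.3 RPKM, and of 10 core pluripotency factors, with 160 and 123 RPKM. The median log2(RPKM + 0.5) of the markers minus that of the naive factors was -3.43 in A and -3.34 in B. Nanog is on both of these lists. Every naive and core factor reached 1 CPM in both libraries. Even so the lists touched: Foxd3 lay above 2 of the 15 naive factors in each library, Zic2 above 2 in A and 1 in B, Otx2 above 2 in B only and Zic5 above 1 in B only. Prdm14, a repressor of the primed programme and the lowest naive factor by mean RPKM, had 10.7 RPKM in A and 7.24 in B and was the nearest in level of 123 listed genes to both Zic2 and Otx2.

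A further 23 genes associated with the formative and primed states covered a wider range, with a median of 8.25 RPKM in A and 6.49 in B, and 17 of 23 passed 1 CPM in both. The highest were Tdgf1, a Nodal coreceptor gene, at 402 and 351 RPKM, Utf1 at 316 and 196 and the methyltransferase cofactor gene Dnmt3l at 199 and 306. These genes are also on in naive ES cells, and Tdgf1 and Utf1 are on the list of core factors as well. The lowest was Cer1, with 1 count in A and 0 in B. The list's genes were above Fgf5 in 22 of 23 cases by mean RPKM and above Foxd3, the highest marker, in 12 of 23, which was 11 in A and 11 in B taken alone.

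Early neural genes, the other setting in which several of these markers are used, were mostly low. The 1 CPM level was passed in both by 5 of 15, and the median of the list was 0.101 RPKM in A and 0.0518 in B. Tubb3 was highest at 40.0 and 24.3 RPKM, followed by Nes at 5.70 and 5.98, whereas Dcx had 0 counts in both. Tubb3 was the only early neural gene above Foxd3, Otx2 and Zic2 by mean RPKM, and Nes was the gene nearest to Zic5 in level.

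To show how high genes of other tissues read in these libraries, 20 genes of unrelated adult tissues were measured as well. Among them 6 passed 1 CPM in A and in B and 5 had no count in either, and their median was 0.0710 RPKM in A and 0.0457 in B. Fgf5 lay inside this list, with 10 of its genes above and 10 below by mean RPKM. Sox3 had 8 of the 20 above it in A and 5 in B. Sall2 and Pou3f1 each had 2 above them by mean RPKM, the cardiac light chain gene Myl7 (12.2 and 4.47 RPKM) and the myoglobin gene Mb (4.68 and 1.70). Of the other 4 markers only Zic5 had one of these genes, Myl7, above it by mean RPKM, and in A Myl7 also exceeded Otx2 and Zic2. Of the 7 genes of this list tested between the libraries, 5 were called higher in A and none lower, where 38.4% of all genes tested were called higher and 38.4% lower.

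**Figure D3:**
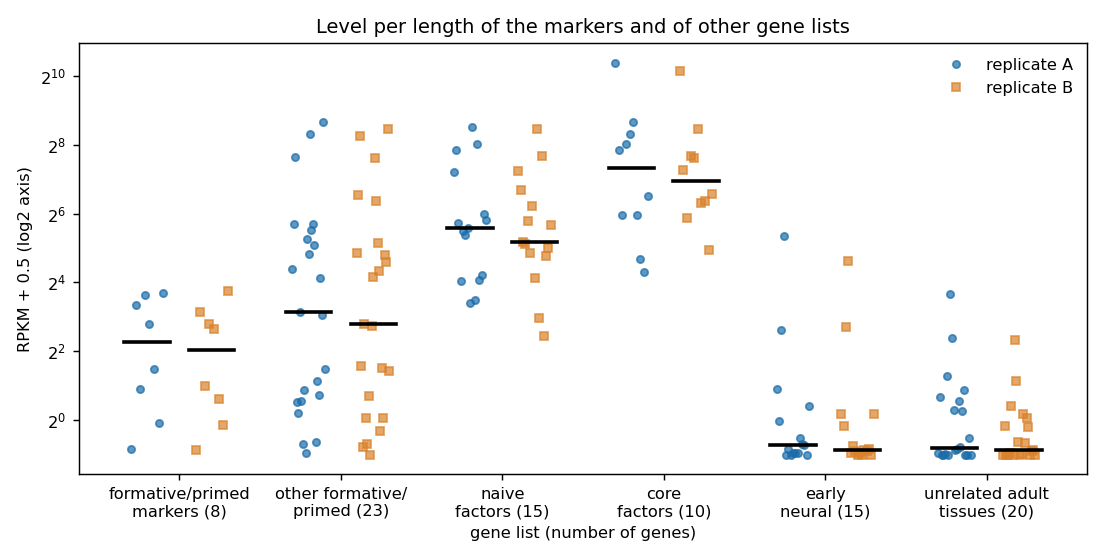
RPKM + 0.5 (log2 axis) of the 8 markers and of 5 other gene lists in replicates A and B, 1 point a gene, with the list median as a bar. The marker medians of 4.36 RPKM in A and 3.64 in B lie under those of naive factors (46.9 and 35.3) and above those of early neural genes (0.101 and 0.0518).

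The markers had a median of 2 exons, and their GC content lay on both sides of the median of other genes. The single-exon genes Foxd3, Pou3f1 and Sox3 make up 37.5% of the set, taken without a filter on level. Among the 11984 protein-coding genes that passed 1 CPM in both, a level that Sox3 and Fgf5 did not reach, the share was 5.12%. The 3 single-exon markers also have the highest GC content, at 65.1%, 63.9% and 66.4% of the transcript, against a median of 50.1% over those protein-coding genes. Zic2 follows at 59.9% and Sall2 at 53.2%, whereas Zic5 at 49.8%, Fgf5 at 47.0% and Otx2 at 46.8% lie under that median. Otx2, Sall2, Zic2 and Zic5 all lie on chromosome 14, and Foxd3 and Pou3f1 both on chromosome 4.

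The 6 markers above 1 CPM were compared between the libraries to measure the error of their levels. Sall2 and Zic2 were higher in A, and Otx2, Zic5, Foxd3 and Pou3f1 did not pass the test. Sall2 was 2.09-fold higher in A (95% interval 1.73 to 2.54; exact binomial test, adjusted p = 1.09e-14) and Zic2 1.72-fold (1.53 to 1.93, adjusted p = 5.6e-21). Of all genes tested, 86.0% had a smaller absolute log2 ratio than Sall2 and 75.0% a smaller one than Zic2. The counts were scaled by TMM factors, p-values were adjusted over all 14583 genes tested, and 76.8% of those genes were called, 38.4% higher and 38.4% lower in A. The test compares these 2 libraries and not conditions, and its intervals hold counting error only.

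Of the markers that did not pass, Otx2 had a ratio of A over B of 1.09 (0.982 to 1.22, adjusted p = 0.125 by the exact binomial test) and Zic5 one of 1.04 (0.944 to 1.15, adjusted p = 0.48). Pou3f1 had a ratio of 0.866 (0.690 to 1.09, adjusted p = 0.252) and Foxd3 one of 0.907 (0.825 to 0.998, adjusted p = 0.0589). Their log2 ratios were small beside those of the other genes tested, since between 6.75% and 23.1% of all tested genes had a smaller absolute log2 ratio. The median absolute log2 ratio over the genes tested was 0.44. Sox3 and Fgf5 did not enter the test, with equal counts of 26 and of 4 in both libraries.

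**Figure D4:**
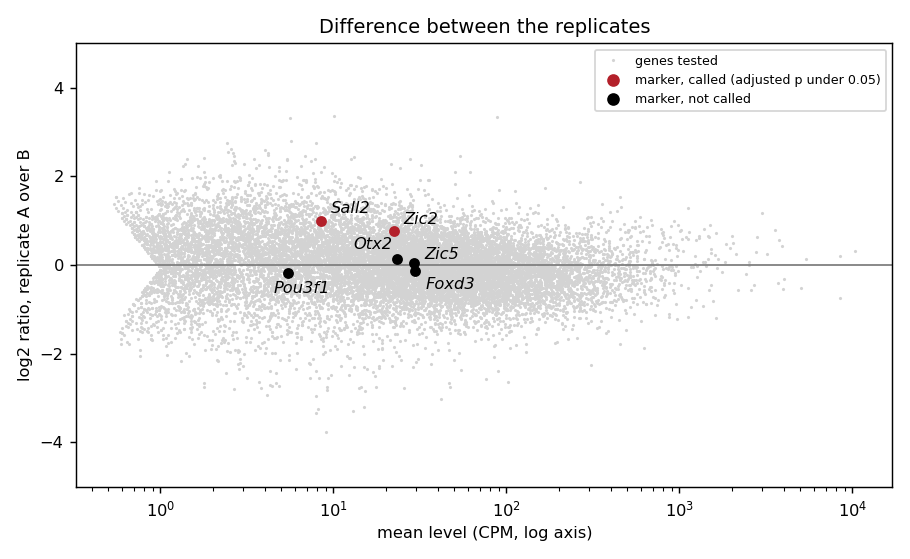
Log2 ratio of replicate A over B from TMM-scaled CPM with a pseudocount of 0.5, against mean CPM (log axis), with the 14583 genes tested in grey and the 6 tested markers named. Sall2 (1.00) and Zic2 (0.76) lie above 0 and were called, and the other 4 markers lie between -0.19 and 0.13.

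Within the Sall family the libraries differed in opposite directions. Sall1 and Sall3 were lower in A, with ratios of 0.654 (exact binomial test, adjusted p = 6.69e-136) and 0.638 (adjusted p = 1.27e-05), while Sall2 was higher. Among the SoxB1 and FGF paralogs, Sox2 (ratio 1.42), Sox1 (2.02) and Fgf4 (1.48) were all called higher in A. Sall4 was not called (ratio 0.991, adjusted p = 0.612), with a log2 ratio that turned from negative to positive when library totals replaced TMM.

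The difference between the libraries moved with GC content. Over the genes tested, the median log2 ratio of A over B was -0.53 in the decile of lowest GC content and 0.57 in that of highest. Zic2, Foxd3 and Pou3f1 belong to that highest decile, where Zic2 at 0.76 lay above the median of 0.57 and Foxd3 at -0.14 and Pou3f1 at -0.19 lay below it. Corrected for GC content and transcript length by a smooth fit over the genes tested, the log2 ratio of Zic2 came to 0.16 and was no longer called (adjusted p = 0.0532). With the same correction Foxd3 and Pou3f1 were called lower in A, at -0.92 (adjusted p = 3.84e-39) and -0.79 (adjusted p = 1.39e-06), and Otx2 and Zic5 were called higher, at 0.20 (adjusted p = 0.0147) and 0.22 (adjusted p = 0.00308). Sall2 kept a log2 ratio of 1.01 (adjusted p = 7.19e-15), close to its uncorrected 1.00, and was the only marker called in both fits.

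**Figure D5:**
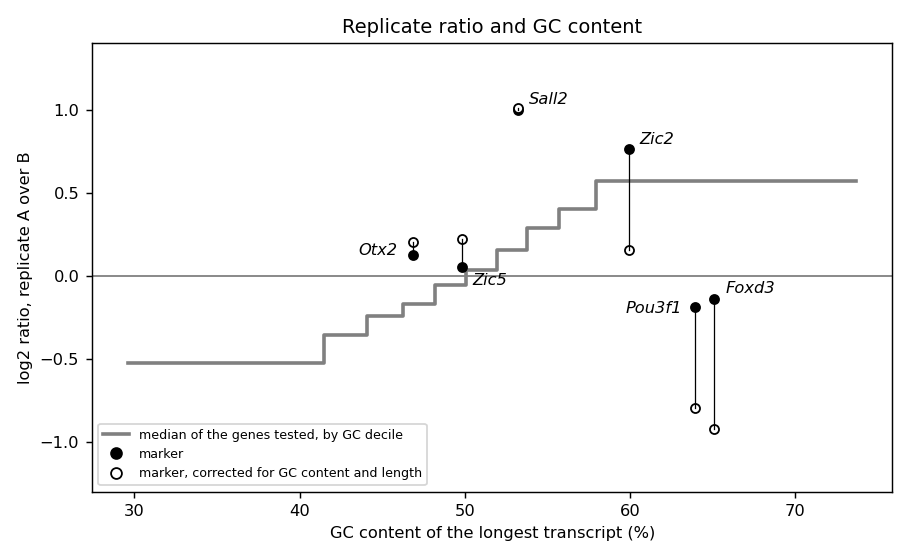
Log2 ratio of replicate A over B against the GC content of the longest transcript, with the median of the genes tested in each decile of GC content as a grey step line, and each tested marker before (filled) and after (open) correction for GC content and length. The step line climbs from -0.53 to 0.57, Sall2 stays at 1.01, and Zic2 moves to 0.16 while Foxd3 and Pou3f1 move to -0.92 and -0.79.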

How the data were processed

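RNA was isolated with Trizol and made into polyA libraries with an Illumina TruSeq kit, per the labels' protocols. The authors deposited raw counts for each Ensembl gene, with a file for each library. The build mm10 and the tools featureCounts (1.4.5-p1) and STAR (2.4.2a) are named in the submitters' processing notes. Annotation release, strand setting and the handling of reads with several positions are not given in the sources used, so overlapping genes are uncertain.

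Symbols, positions, lengths and GC content came from GENCODE M21, which matched 42548 of 43629 identifiers and 99.8% of the counts of each library. CPM, RPKM and exact 95% Poisson and binomial intervals were computed here (Python 3.11.15, scipy 1.17.1). Intervals, and the limit of 3 counts for a count of 0, cover counting error only. Percentiles and medians describe these libraries.

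The libraries were compared by an exact two-sided binomial test per gene after TMM scaling with factors of 1.03 (A) and 0.968 (B) from edgeR 4.0.16 under R 4.3.3. It covered genes that passed 1 CPM in A or B, with Benjamini-Hochberg adjustment over 14583 genes and calls at an adjusted p under 0.05. With 1 group, edgeR's quasi-likelihood test has no contrast to test. Log2 ratios used a pseudocount of 0.5, and folds are unlogged ratios of TMM-scaled CPM. The biological coefficient of variation was 0.359. The test was also run on simulated Poisson counts. These hold counting error only, so the simulation cannot show how the test behaves with the spread of real libraries. The members, gene lists and tests were chosen with earlier results of these data known. The rule for named genes takes all markers, up to 3 of the highest and the lowest genes of each list by mean RPKM, the paralogs that passed 1 CPM in both and the gene nearest in log2(RPKM + 0.5), of which those a result turns on are given. One listed gene is not reported here, and is left out of the lists. Other genes were named after their values were seen. The settings varied were the scaling (size factors of DESeq2 1.42.0, or plain totals), filters, pseudocounts, Fisher's exact test, joined exon length and a correction for GC content and length.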

Additional observations from a re-analysis of the deposited data

How the results depend on the processing

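The count of 6 markers at 1 CPM or more in both libraries was 7 at a threshold of 0.5 CPM, through Sox3, and was 6 at 2 CPM, with TMM-scaled totals, by TPM and without either replicate. The 2 markers called higher in A became 4 with library totals, through Otx2 and Zic5, and 3 with the correction for GC content and length, without Zic2 and with Otx2 and Zic5, and stayed at 2 with the other filters, DESeq2 size factors and Fisher's exact test. The 0 called lower in A became 1 with DESeq2 size factors (Foxd3, adjusted p = 0.0357) and 2 with the correction for GC content and length. At an unadjusted p under 0.05, 1 tested marker, Foxd3, was lower in A. Of the paralogs, Sall4, at -0.01 on the log2 scale, turned to 0.080 with library totals. The median log2(CPM + 0.5) of the markers was 3.84 and by RPKM 1.92. For all genes with a count it was 1.93, by RPKM 1.08 and over protein-coding genes 3.70. The markers minus the naive factors gave -3.22 by mean CPM, and -3.75 to -3.10 when 1 replicate was left out. No paired analysis was possible because the series holds 1 group. Depth limits Fgf5 and Sox3, whose 4 and 26 counts per library leave wide intervals.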

Other observations

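The genes nearest in level to the remaining markers came from mixed lists, by Euclidean distance in log2(RPKM + 0.5) over the 2 libraries among 123 listed genes. They were Nr5a2 for Foxd3 (distance 0.48), Myh6 for Sall2 (0.28), Eomes for Pou3f1 (0.28), Fgfr3 for Sox3 (0.061) and Foxd1 for Fgf5 (0.079). Eomes, a mesendoderm factor, had 1.32 RPKM in A and 1.13 in B. Nr5a2, an orphan nuclear receptor gene, had 10.2 RPKM in A and 17.0 in B. With only 2 libraries, nearness means a like level and no shared pattern.

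Genes beside the markers on the chromosome ranged widely. Utp11, the closest gene that does not overlap Pou3f1, had 2042 counts in A and 2106 in B, and Mettl3, the closest to Sall2, had 1323 and 1291. The transcript 2610035F20Rik begins 235 bases from Zic2 and had 7 counts in A and 5 in B. Gm12688, a lincRNA 1315 bases from Foxd3 on the other strand, had 129 counts in A and 156 in B. Prdm8 and Cfap299, the closest genes to Fgf5, had 3 and 0 counts in A and 2 and 1 in B.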
